A study of Mus musculus with 2 samples.

Results

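The collagen genes of the fetal mouse lower jaw are described here by class and by the tissue that uses them, in mandibles with skeletal muscle and without it. Members were chosen by name: every gene whose symbol is Col, a number, the letter a and a number, with a probe set that names this gene alone. This gave 44 genes of 27 collagen types, represented by 46 probe sets, among 19938 genes on the array. Mandible RNA of E18.5 fetuses, close to birth, was hybridised to Affymetrix arrays. The wild-type group is of the BALB/c strain, and the double-knockout group (Myf5-/-:MyoD-/-) is BALB/c with null alleles of both Myf5 and Myod1, the muscle-determining transcription factors. No drug or other agent is given for either group. Each group is 1 array, how many fetuses lie behind an array is not stated in these sources, and no difference below has a replicate check or a p-value. The study's title names its question as the role of skeletal muscle in mandible development.

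Collagens are secreted matrix proteins whose chains wind around each other into a stiff helix. Fibrillar collagens form the cables of bone, cartilage, tendon and skin. Network collagens form sheets, such as the type IV mesh of basement membranes, the thin layers under epithelia and around muscle fibres and vessels. FACITs (fibril-associated collagens with interrupted helices) coat fibrils, beaded-filament collagen VI lies around cells, transmembrane collagens sit in the cell surface, and multiplexins end in a domain that can be released. In the developing jaw, type I collagen builds bone, types II, IX and XI build Meckel's and condylar cartilage, and type X marks the hypertrophic cartilage that is replaced by bone.

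Values are log2 signals as deposited, so a difference of 1 is a 2-fold difference. The floor, under which a value is not told from background here, was the median of the probe sets that name 1 gene, 6.20 for wild type and 6.21 for the double knockout. Genes above the floor on either array, or both, count as measured. Lower values were raised to the floor, which makes a difference that involves such a value a bound ("at least"). Sums of linear signals use the values as deposited, also those under the floor. The exception is the sum of the skeletal muscle markers, in which such values were set to the floor. The sign of a difference is that of the double knockout minus the wild type. Signals of different genes come from different probes and are not compared with each other, only their differences. As a yardstick, the differences given by the brighter pair of probe sets of the same gene were subtracted from each other. The disagreement within such pairs had an SD of 0.22 over 528 genes, called the probe set SD below. That spread leaves out all variation between animals and hybridisations.

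The targeted genes were lower in the double knockout. Myf5 gave 6.31 in wild type and 4.95, under the floor, in the double knockout, so its difference was only bounded. Myod1 gave 7.14 and 6.49, a difference of -0.66. Its double-knockout value thus lay above the floor of 6.21 although the gene carries null alleles, and what this signal reflects was not tested. Of 7 skeletal muscle markers, 7 were lower in the double knockout by 2-fold or more, beside 2.74% of all measured genes. They ran from Myog (at least 2.81-fold) to Tnnt3 (at least 55.5-fold) and Acta1 (at least 63.6-fold). The sum of their linear signals was 19946 in wild type and 523 in the double knockout. There 6 of the 7 values lay under the floor and were set to it. Of 6 salivary gland markers, 6 were at least 2-fold higher, beside 0.513% of all measured genes. They were led by Pip (4.12) and Smgc (3.51), and their summed linear signal was 1840 against 15589. The tissue label was checked against skeletal markers. All 4 osteoblast markers analysed (Ibsp, Sp7, Dmp1 and Phex) were above the floor on both arrays, but 4 of 7 cartilage markers (Matn1, Matn3, Comp and Cnmd) lay below it on both.

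Of the 36 collagen genes measured, 1 differed by 2-fold or more. Of the 44 genes, 36 were measured, 33 of them on both arrays, and 8 were under the floor on each array. At least 2-fold lower was 1 of 36, Col14a1, a share of 2.78% beside 2.74% of all 10336 measured genes, so the count is near the background. At least 2-fold higher were 0 of 36, beside 0.513% of all measured genes. The median collagen difference was 0.021 and that of all measured genes 0.098. In 19 of 36 the difference was above 0, beside 66.9% of all measured genes, and in 17 below 0, beside 32.2%. With the median of all measured genes set to 0 the split was 15 higher and 21 lower, beside 50% of all measured genes on each side. At 1.5-fold, 5 collagen genes were lower (13.9%, beside 5.11% of all measured genes) and 0 higher (beside 3.06%), and at 3-fold 0 were lower (beside 1.55%) and 0 higher (beside 0.174%). The 5 lower at 1.5-fold were Col14a1, Col6a6, Col15a1, Col6a1 and Col6a2. Differences within the probe set SD of 0.22 were found in 19 of 36 (52.8%), beside 60.1% of all measured genes.

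**Figure D1:**
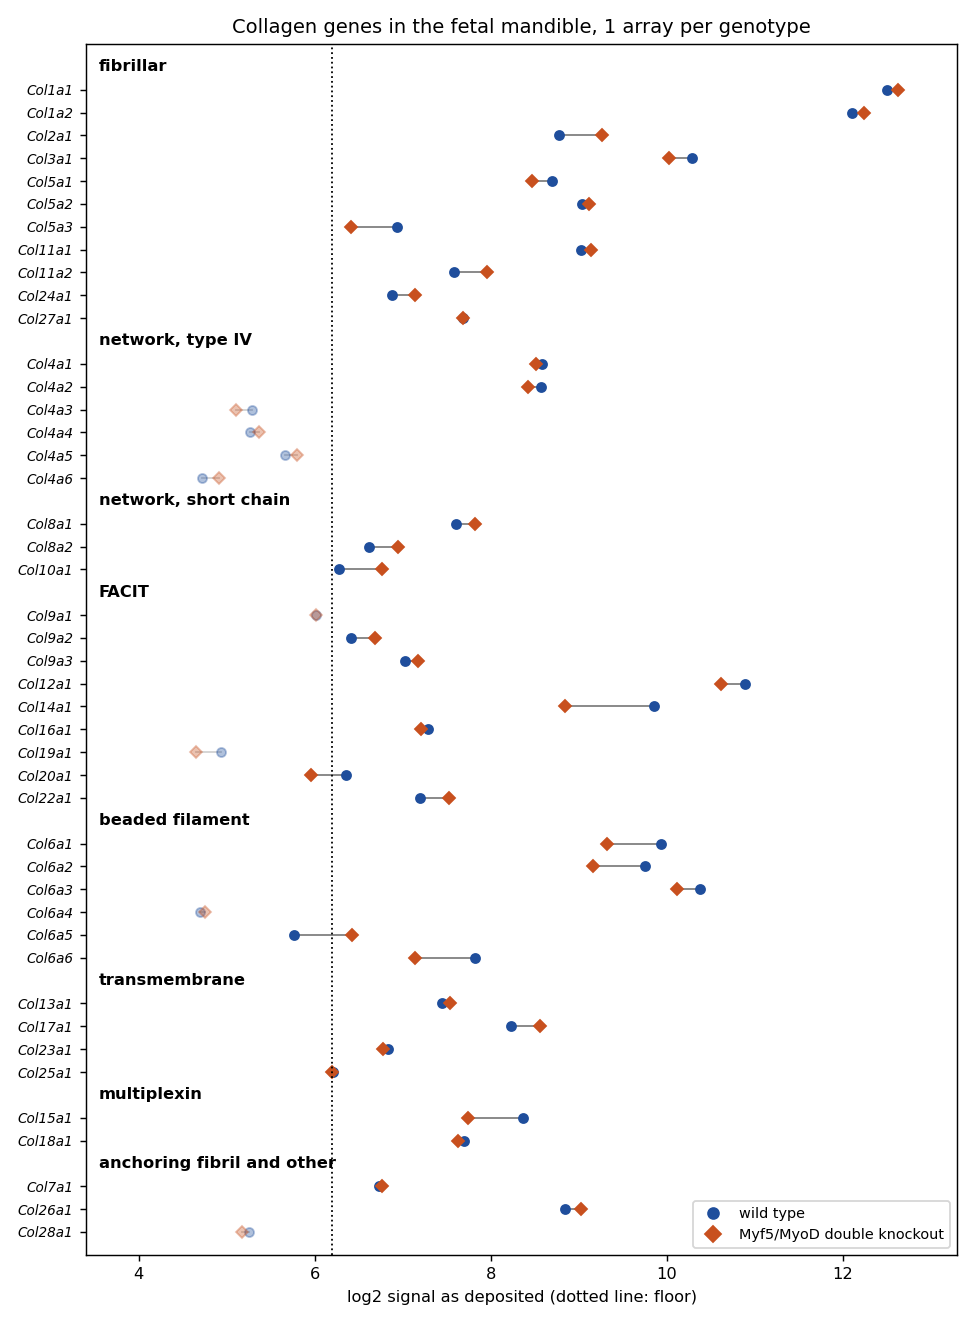
Deposited log2 signal (horizontal axis) of each of the 44 collagen genes on the wild-type array (circles) and the double-knockout array (diamonds), grouped by structural class, with 1 array per genotype and so no error bars; the dotted line is the floor of the wild-type array, 6.20, and the 8 pale genes lie below the floor on both arrays. The widest gap between symbols is that of Col14a1 (9.85 against 8.84), and each gene is to be compared between genotypes, not with other genes.

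Before the classes, the DNA just upstream of some members is shown. RefSeq's promoter table (GRCm38.p6) held 35 of the 44 genes, with 38 start sites. The sequences are the 250 bases before the start, and they are given for the genes that differed most in each direction and had an entry. Capitals mark any match, on either strand, to the E box CANNTG (the kind of site that Myf5 and MyoD bind), the TATA box TATAAA, the CCAAT box CCAAT or the GC box GGGCGG; adjoining matches can overlap. First come genes that were lower in the double knockout:
Col6a1, chr10:76726045-76726294, minus strand: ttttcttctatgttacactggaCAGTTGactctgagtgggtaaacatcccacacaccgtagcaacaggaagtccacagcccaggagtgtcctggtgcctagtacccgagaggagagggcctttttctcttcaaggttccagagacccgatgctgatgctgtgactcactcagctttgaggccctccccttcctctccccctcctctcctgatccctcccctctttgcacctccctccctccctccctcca
Col6a2, chr10:76623631-76623880, minus strand: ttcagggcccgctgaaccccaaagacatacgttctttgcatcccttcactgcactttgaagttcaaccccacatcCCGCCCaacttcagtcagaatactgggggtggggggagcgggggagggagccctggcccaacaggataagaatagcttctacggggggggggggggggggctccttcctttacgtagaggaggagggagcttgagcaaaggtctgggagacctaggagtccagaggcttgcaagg
Col6a6, chr9:105828086-105828335, minus strand: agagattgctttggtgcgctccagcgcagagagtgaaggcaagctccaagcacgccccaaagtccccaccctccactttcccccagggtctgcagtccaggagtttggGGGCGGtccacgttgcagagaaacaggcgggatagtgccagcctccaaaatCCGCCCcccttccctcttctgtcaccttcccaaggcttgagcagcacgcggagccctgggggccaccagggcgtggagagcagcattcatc
Col15a1, chr4:47207762-47208011, plus strand: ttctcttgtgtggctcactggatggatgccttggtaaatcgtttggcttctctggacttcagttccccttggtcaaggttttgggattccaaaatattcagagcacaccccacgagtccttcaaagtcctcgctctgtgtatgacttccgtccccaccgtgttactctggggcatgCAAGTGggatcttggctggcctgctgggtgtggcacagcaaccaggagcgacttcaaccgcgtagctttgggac
Next come genes of cartilage that were higher:
Col10a1, chr10:34389731-34389980, plus strand: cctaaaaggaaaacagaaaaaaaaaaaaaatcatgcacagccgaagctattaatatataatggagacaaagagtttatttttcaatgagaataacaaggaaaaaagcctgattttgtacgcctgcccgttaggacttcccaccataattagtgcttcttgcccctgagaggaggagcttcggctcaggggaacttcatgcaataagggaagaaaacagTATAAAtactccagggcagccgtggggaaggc
Col11a2, chr17:34038888-34039137, plus strand: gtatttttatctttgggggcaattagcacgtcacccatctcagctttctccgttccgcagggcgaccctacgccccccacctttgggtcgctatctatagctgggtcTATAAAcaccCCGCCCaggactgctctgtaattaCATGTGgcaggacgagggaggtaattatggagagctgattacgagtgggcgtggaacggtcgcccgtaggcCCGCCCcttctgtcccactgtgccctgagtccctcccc

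The Col6a1 and Col15a1 stretches each hold 1 E box, and those of Col6a2 and Col6a6 hold 0. The Col6a2 stretch shown, that of the more upstream of its 2 starts, has 1 GC box, and Col6a6 has 2. Col10a1 and Col11a2 each carry a TATA box, and Col11a2 also has 1 E box and 2 GC boxes. Over the 38 collagen promoters, 50% held an E box, beside 66.2% of all 32841 promoters of this length. A TATA box was in 13.2% (12.4% of all), a CCAAT box in 34.2% (33.9% of all) and a GC box in 57.9% (32.7% of all). The median GC content was 59.0% for collagen promoters and 52.4% for all. A match of letters is a description of this window and does not show that a factor binds there.

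Among fibrillar collagens, those of soft tissue were mostly lower in the double knockout, and those of cartilage and bone lay at or above 0, as did most measured genes. All 11 were measured on both arrays, 8 were higher and 3 lower (7 and 4 after quantile normalisation, 6 and 5 with the median of all genes set to 0), and the median difference was 0.117. The chains of type I collagen, the main fibre of bone, differed by nearly the same amount: Col1a1 gave 12.50 in wild type and 12.63 in the double knockout, a difference of 0.13, and Col1a2 gave 12.10 and 12.24, a difference of 0.15. Both lie within the probe set SD as deposited. After quantile normalisation Col1a1 differed by 0.34, more than the probe set SD, and Col1a2 by 0.15. Col24a1, a minor fibrillar collagen of developing bone, gave 6.88 and 7.14, a difference of 0.26.

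Of the fibrillar genes of cartilage, Col2a1 and Col11a2 were higher by more than the probe set SD, and Col11a1 and Col27a1 lay within it. Col2a1, the principal collagen of cartilage, gave 8.77 in wild type and 9.26 in the double knockout, 1.40-fold higher. For 94.6% of all measured genes the difference was lower than this. Col11a2, a chain of the thin cartilage fibril, gave 7.58 and 7.96 (1.31-fold higher), while its partner chain Col11a1 gave 9.02 and 9.14, a difference of 0.12. The type XI chains therefore ran in one direction with 0.27 between them. Col27a1, a cartilage collagen of the fibrillar class, gave 7.68 and 7.69, a difference of 0.00 that is positive or negative depending on the scaling.

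The fibrillar collagens of soft tissue were lower, except for 1 chain. Col3a1, the collagen of extensible tissue such as vessel walls and skin, gave 10.29 in wild type and 10.02 in the double knockout, a difference of -0.27. The difference of Col1a1 exceeded that of Col3a1 by 0.40, so the proportion of type I to type III signal was higher in the double knockout. Type V collagen starts and thins type I fibrils, and its chains diverged. Col5a3 gave 6.93 and 6.41 (1.43-fold lower), Col5a1 gave 8.69 and 8.47 (-0.21), and Col5a2 gave 9.04 and 9.12 (0.08; below 0 with the median of all genes set to 0). Type V had a spread of 0.59 between its highest and lowest chain, more than the probe set SD.

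**Figure D2:**
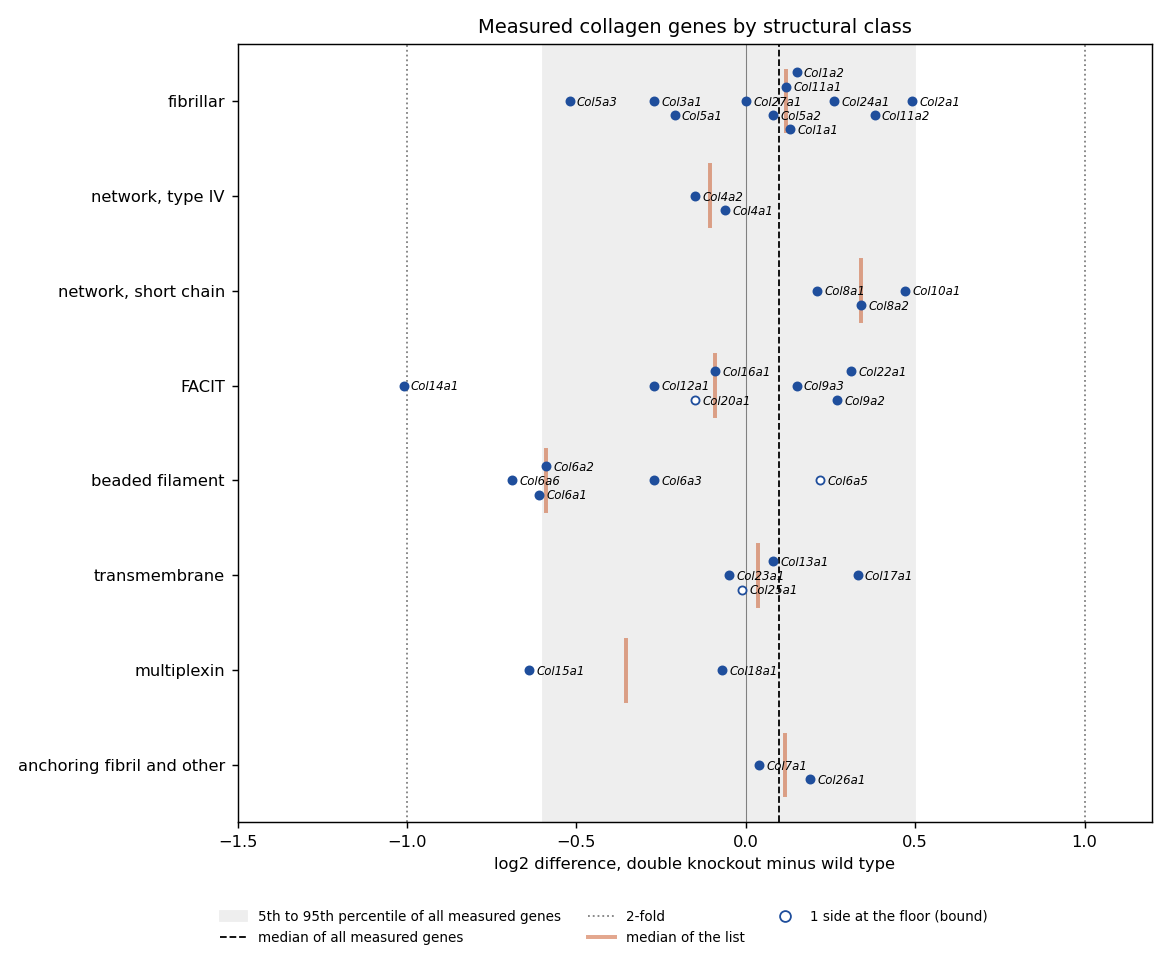
Log2 difference, double knockout minus wild type (horizontal axis), of the 36 measured collagen genes by structural class, each point 1 gene from 1 array per genotype, open where 1 side is at the floor; bars are class medians, the dashed line is the median of all 10336 measured genes (0.098) and the shaded band runs from their 5th (-0.60) to their 95th (0.50) percentile. Genes left of the band are Col14a1, Col15a1, Col6a1 and Col6a6, with Col6a2 at its edge, and no collagen gene lies right of it.

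The beaded-filament class had the lowest median, at -0.59. Type VI collagen links cells to the surrounding fibrils and is abundant in the sheaths of muscle and tendon. Of 6 genes 5 were measured, 4 of them lower (beside 32.2% of all measured genes) and 1 higher. The counts for this class were the same under both other scalings. Col6a1 gave 9.93 in wild type and 9.32 in the double knockout, 1.52-fold lower. Its neighbour on chromosome 10, Col6a2, gave 9.75 and 9.16, 1.51-fold lower. These partner chains differed from each other by 0.02 in their differences. Col6a3, which joins them in the classical type VI molecule, gave 10.38 and 10.11, a difference of -0.27 that was 0.34 smaller in size than that of Col6a1.

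The later-named type VI chains lie side by side on chromosome 9 and did not run together. Col6a6 gave 7.82 and 7.14 with its brighter probe set (1.61-fold lower) and 7.57 and 6.35 with the other (2.34-fold lower). The directions of both probe sets are alike, and the sizes are 0.69 and 1.22 on the log2 scale. Col6a5 went the other way. It was at 5.77, under the floor, in wild type and at 6.42 in the double knockout, so it was at least 1.16-fold higher, and a second probe set, below the floor on both arrays, gave 4.64 and 5.63. Col6a4 was below the floor on both arrays (4.70 and 4.75).

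FACITs held the gene with the largest difference. Of 9 with a probe set 7 were measured, 3 higher and 4 lower under every scaling tried, with a median of -0.087. Col14a1 (undulin), which coats fibrils in tendon, muscle sheaths and skin, gave 9.85 in wild type and 8.84 in the double knockout, 2.01-fold lower. Only 2.73% of measured genes had a lower difference. It passed the 2-fold line by 0.01 on the log2 scale, and was at -1.11 with the median of all genes set to 0 and -1.05 after quantile normalisation. Col12a1, its close relative in dense connective tissue, gave 10.89 and 10.62, a difference of -0.27, and 0.74 separated the pair.

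The cartilage FACITs were higher where measured. Col9a2 gave 6.41 and 6.68 (0.27) and Col9a3 gave 7.02 and 7.17 (0.15), and Col9a1 was below the floor at 6.02 on both arrays. These chains decorate the type II fibril. Col16a1, found at fibrils and near basement membranes, gave 7.29 and 7.21 (-0.09). Col20a1 gave 6.36 in wild type and 5.96, under the floor, in the double knockout, at least 1.11-fold lower. Col22a1, the collagen of the junction between muscle and tendon, gave 7.20 and 7.52, a difference of 0.31 and so higher in the double knockout. Col19a1 was below the floor on both arrays (4.94 and 4.65).

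Among network collagens, the genes above the floor differed in sign between the subgroups. In type IV, the ubiquitous chains of basement membrane, Col4a1 gave 8.58 and 8.51 (-0.06) and Col4a2 gave 8.57 and 8.42 (-0.15). Both lie within the probe set SD, and the genes are neighbours on chromosome 8. The other 4 type IV genes, Col4a3, Col4a4, Col4a5 and Col4a6, whose chains belong to specialised membranes such as those of kidney and smooth muscle, were below the floor on both arrays, at 4.72 to 5.80. With a 25th percentile floor or no floor they were counted too, and type IV had 3 higher, 3 lower and a median of 0.021. The short-chain networks were higher, 3 of 3 under every scaling, beside 66.9% of all measured genes as deposited, with a median of 0.339. Higher by more than the probe set SD were 2 of the 3, beside 26.7% of all measured genes. With the floor at the 75th percentile 1 gene was left, at 0.12. Col10a1, made by hypertrophic chondrocytes, gave 6.28 in wild type, close to the floor, and 6.76 in the double knockout, 1.39-fold higher. Col8a1 gave 7.60 and 7.82 (0.21) and Col8a2 gave 6.62 and 6.95 (0.34), both chains of a sheet known from vessel walls and the cornea.

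Transmembrane collagens and multiplexins were each led by 1 gene. Col17a1, which anchors basal keratinocytes in hemidesmosomes, gave 8.23 and 8.56, 1.26-fold higher. The other transmembrane genes were flat: Col13a1, found at neuromuscular synapses and other adhesions, gave 7.45 and 7.54 (0.08), Col23a1 gave 6.83 and 6.78 (-0.05), and Col25a1, which guides motor nerves to muscle, lay at the floor on both arrays (6.21 and 6.20). The median of the 4 was 0.038, and it was -0.059 with the median of all genes set to 0. Among the multiplexins, Col15a1, which lies on the outer side of basement membranes of muscle fibres and capillaries, gave 8.37 in wild type and 7.74 in the double knockout, 1.55-fold lower. Col18a1, the source of endostatin, gave 7.70 and 7.63 (-0.07), and 0.57 separated the pair. Of the rest, the anchoring fibril gene Col7a1 gave 6.73 and 6.77 (0.04), Col26a1 gave 8.84 and 9.03 (0.19), and Col28a1 was below the floor on both arrays (5.25 and 5.17).

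Chains of one collagen type can be set against each other in 7 types with several measured chains. In types I, IV, VIII, IX and XI the measured chains ran in one direction, with spreads as deposited from 0.02 (type I) to 0.27 (type XI). Those of types I, VIII, IX and XI were above 0, as were 66.9% of all measured genes. Both type IV chains lay within the probe set SD. With the median of all genes set to 0, Col1a1 was at 0.03, Col1a2 and Col9a3 at 0.05 and Col11a1 at 0.02. After quantile normalisation Col1a1 was at 0.34 and Col1a2 at 0.15. In types V and VI the measured chains did not run in one direction, with spreads of 0.59 and at least 0.90. For type V this rests on Col5a2: with the median of all genes set to 0 it was at -0.02, and all measured type V chains were lower. Neighbouring genes did not always run alike: Col6a1 and Col6a2 differed by 0.02, but Col3a1 and Col5a2, adjacent on chromosome 1, were at -0.27 and 0.08, and Col6a6 and Col6a5 were at -0.69 and at least 0.22.

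Grouped by the tissue that uses them, 8 of 9 soft-tissue collagens were lower, and the 7 cartilage and 3 bone collagens measured were at or above 0. Of 9 collagens of soft connective tissue and tendon, 8 were lower, beside 32.2% of all measured genes (9, beside 50%, with the median of all genes set to 0), and the median was -0.273. By more than the probe set SD, 7 of the 9 were lower, beside 13.1% of all measured genes. The summed linear signal of the 9 was 8299 in wild type and 6379 in the double knockout, 1.30-fold lower. The exception was Col5a2. This split depends on the lists, which put a gene in 1 use at most and were drawn up with earlier results of these data known. The type I genes Col1a1 (0.13) and Col1a2 (0.15) were listed under bone and are not among the 9, although fibrillar collagens also form tendon and skin.

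Markers of muscle, and most of those measured for tendon, were also lower, whereas fibroblast markers were mixed. The skeletal muscle markers given above were at least 38.1-fold lower in sum. Of 5 tendon markers 3 were at least 2-fold lower, beside 2.74% of all measured genes: Tnmd (-2.49), Thbs4 (-1.84) and Kera (which gave 8.16 and 6.59). Mkx differed by 0.10 and Scx was under the floor on each array. The summed linear signal of the 5 was 1967 against 661. Of 7 fibroblast markers 6 were measured, 3 higher and 3 lower, with a median of 0. At least 2-fold lower were 2, Mfap5 (-2.17) and Dpt (-1.62), and Dcn differed by -0.04. The 3 higher were Pdgfra (0.31), Lum (0.26) and Osr1 (0.04). Tcf21 was under the floor on each array, and the sum was 7076 against 6349. The part of these cell types in the collagen differences was not tested. In bulk tissue, fewer cells of a type and less RNA per cell cannot be told apart.

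Of 8 cartilage collagens 7 were measured and all 7 were at or above 0, beside 66.9% of all measured genes (6 of 7 under either other scaling, the exception being Col27a1), with a median of 0.267. By more than the probe set SD, 4 of the 7 were higher, beside 26.7% of all measured genes. The summed linear signal of the 8 was 1711 in wild type and 2051 in the double knockout. Beside them, the 3 cartilage markers measured were Sox9 (0.76), Hapln1 (0.35) and Acan (-0.32, named after its values were seen). The sum over the 7 markers listed, 4 of them under the floor on both arrays, was 735 against 954. That gain came mostly from Sox9, the brightest of the 7 on either array (log2 signals 8.37 and 9.13). The sum therefore does not describe the cartilage markers as a group. The 3 bone collagens had a median of 0.146, beside 0.098 for all measured genes, and all 3 were above 0, as were 66.9% of all measured genes. Their median was 0.049 with the median of all genes set to 0 and 0.237 after quantile normalisation. As deposited, 1 of the 3 was beyond the probe set SD, and their sum was 10300 against 11341. Osteoblast markers were higher in 4 of 4, beside 66.9% of all measured genes. Phex (0.65) and Dmp1 (0.58) were highest, and the sum of the 4 was 6634 against 8284. The part of osteoblast and chondrocyte number in these values was not tested.

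**Figure D3:**
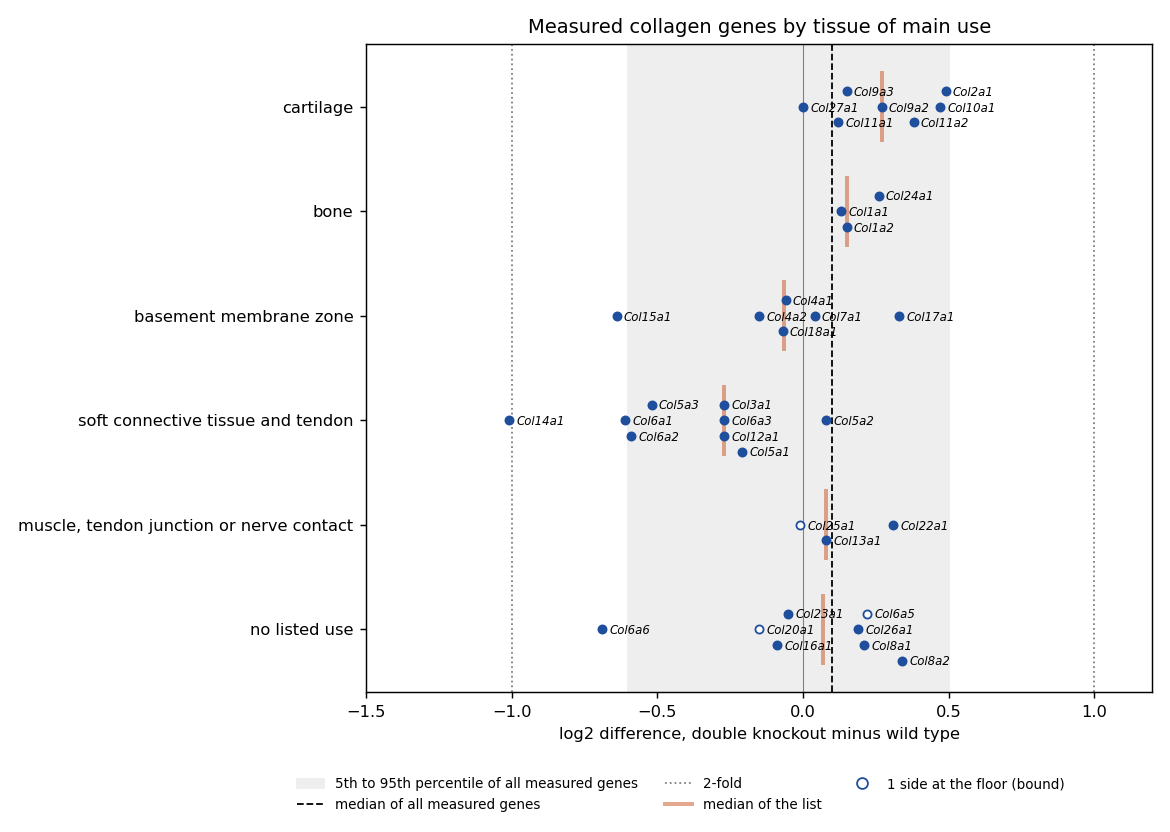
Log2 difference, double knockout minus wild type (horizontal axis), of the 36 measured collagen genes by the tissue that mainly uses them, 1 array per genotype; symbols, bars and band as in the plot by structural class. Of 9 soft-tissue genes 8 lie left of 0, and the 7 cartilage genes lie from 0.00 to 0.49. The type I genes are listed under bone only.

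Collagens of the basement membrane zone went both ways, with more of them lower than among all measured genes. Of 10 genes 6 were measured, 2 higher (beside 66.9% of all measured genes) and 4 lower (beside 32.2%). With the median of all genes set to 0, 1 was higher and 5 lower, beside 50% on each side. Within the probe set SD lay 4 of the 6, beside 60.1% of all measured genes. With a 25th percentile floor or no floor, 5 were higher and 5 lower. The median of the 6 was -0.065, and the sum of the 10 was 1861 against 1767. Col15a1 (-0.64) and Col17a1 (0.33) lay at the ends. Markers of cells that rest on such membranes are given beside them, and those of salivary gland are given above. Epithelial markers were higher in 5 of 6, beside 66.9% of all measured genes. They were led by Epcam (0.87) and Cdh1 (0.69), with a sum of 5973 against 6863. Endothelial markers were higher in 3 of 5, which is near that share, with a median of 0.083 beside 0.098 for all measured genes. They ran from Tek at -0.49 to Emcn at 0.31, with a sum of 2092 against 2213. Schwann cell markers were measured in 2 of the 3 with a probe set, Mbp (0.53) and Sox10 (0.43), S100b was under the floor on each array, and the sum was 227 against 279. Their part in the collagen values was not tested.

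Collagens known from contacts of muscle with tendon or nerve were not lower as a group, but few of them could have shown a decrease. Of 4 genes 3 were measured, Col22a1 at 0.31, Col13a1 at 0.08 and Col25a1 at -0.01, with a median of 0.085 (-0.013 with the median of all genes set to 0). Col25a1 lay at the floor in wild type, so a decrease could not show, and Col19a1 was under the floor on both arrays. The values therefore speak only of Col22a1 and Col13a1. The sum of the 4 was 427 in wild type and 467 in the double knockout, whereas the skeletal muscle markers were at least 38.1-fold lower in sum.

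Of the genes that modify, fold, cut and join collagen, and the receptors that bind it, 1 differed by 2-fold or more. Of 45 listed genes 42 had a probe set and 38 were measured. At least 2-fold lower was 1 of 38 (beside 2.74% of all measured genes) and at least 2-fold higher were 0 (beside 0.513%). The median was 0.079, beside 0.098 for all measured genes. Of the 38, 25 were higher (65.8%, beside 66.9% of all measured genes) and 13 lower, and 17 were higher and 21 lower with the median of all genes set to 0.

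That gene was Tmem38b, a cation channel of the endoplasmic reticulum that is also present in the sarcoplasmic reticulum of muscle. It gave 7.89 in wild type and 6.60 in the double knockout, 2.45-fold lower, and a second probe set, under the floor on both arrays, gave 6.09 and 5.25. It was no longer 2-fold lower with the median over both probe sets (a difference of -0.79) or with the floor at the 75th percentile (-0.16). Others of the chaperone and secretion list were Creb3l1, a factor that drives procollagen secretion in osteoblasts (0.43), and Mia3, which loads collagen into transport vesicles (0.35). The list's median over 8 measured genes was 0.020 (-0.078 with the median of all genes set to 0). Of the 14 genes of hydroxylation and glycosylation, P3h2, a prolyl 3-hydroxylase of basement membrane collagen, gave 9.23 and 8.50, 1.65-fold lower. P4hb, the shared subunit of prolyl 4-hydroxylase, differed by 0.34 and the isomerase Ppib by 0.19, and the median of this list was 0.053 (-0.045 with the median of all genes set to 0).

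Enzymes outside the cell cut the ends off procollagen and join the fibril. Among 5 propeptide-processing genes measured, the procollagen proteinase Adamts3 differed by 0.48, the C-proteinase Bmp1 by 0.29, and its enhancers Pcolce and Pcolce2 each by 0.16, with a median of 0.165. Of the 5, 4 were higher, also with the median of all genes set to 0, beside 66.9% of all measured genes as deposited. Of 4 cross-linking genes, Loxl4 differed by 0.49, Loxl3 by 0.09 and Loxl1 by -0.09, and the median was 0.064 (-0.033 with the median of all genes set to 0). Of these 4, 3 were higher as deposited and 1 under that scaling. The 7 collagen receptors had the highest median of these lists, 0.231. The integrin chain Itga11, a receptor for fibrillar collagen on fibroblasts and osteoblasts, gave 7.78 and 8.38, 1.52-fold higher. Itga2 differed by 0.42 and Itga10, the cartilage form, by 0.28.

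**Figure D4:**
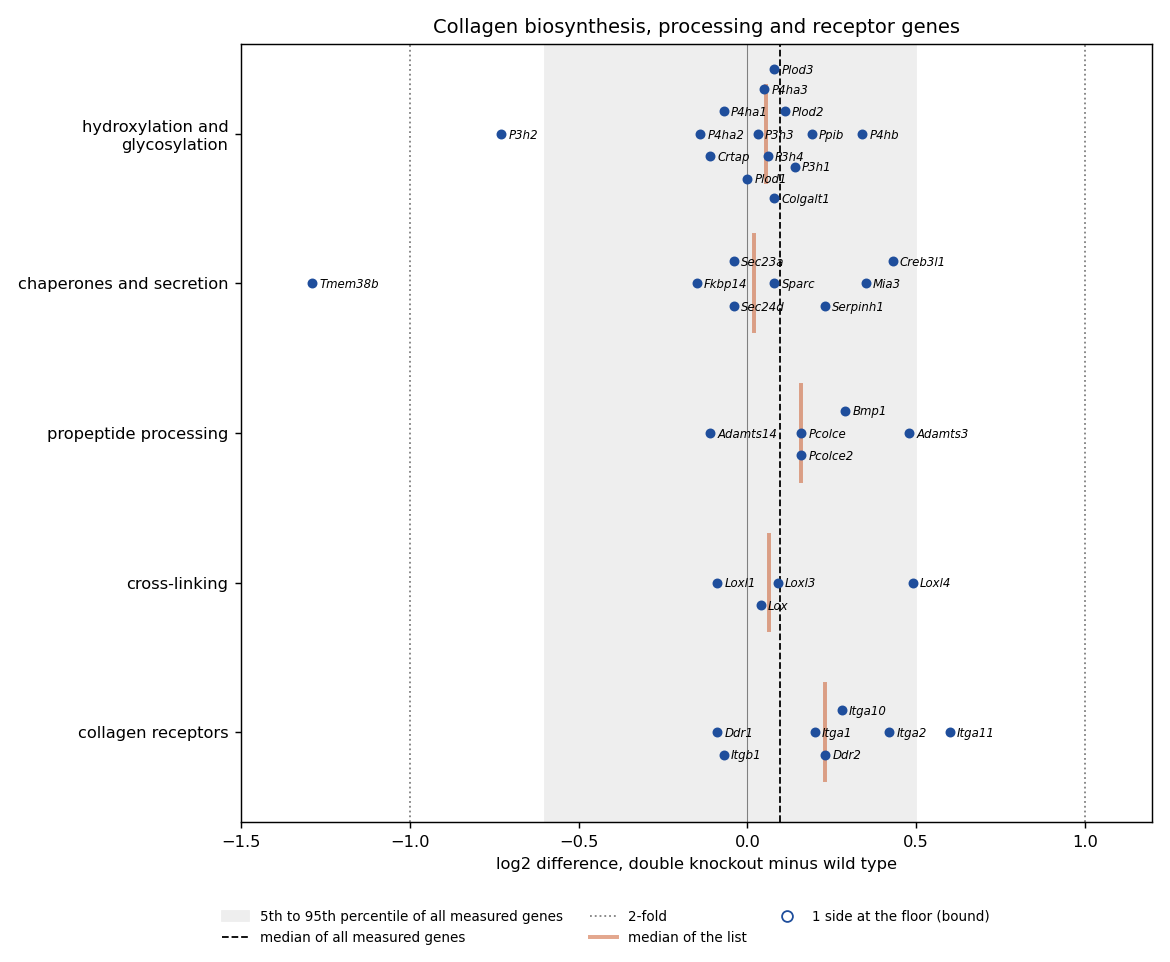
Log2 difference, double knockout minus wild type (horizontal axis), of the 38 measured genes of collagen modification, secretion, processing, cross-linking and reception, 1 array per genotype; symbols, bars and band as in the plot by structural class. Tmem38b (-1.29) and P3h2 (-0.73) lie left of the band and Itga11 (0.60) right of it.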

How the data were processed

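Trizol-extracted total RNA, 6 µg per array, was turned into biotinylated cRNA, per the labels' protocols. The deposited values are log2 signals, 1 per probe set and array. That the base is 2 was read from their top, 13.35 and 13.34. MAS5 was used, per the submitters' processing notes, with no version. The normalization between arrays, the step to logarithms and the genome build are not given in the sources used here. The array medians were 5.48 and 5.45, and the arrays were compared as deposited.

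Of 35557 probe sets, 21789 named 1 gene in GEO's platform annotation, 1621 several and 12147 none. Only the first kind was used, and 0 of the second kind name a collagen of this pattern. All 44 Entrez identifiers matched RefSeq's GRCm38.p6 table, which changed 0 symbols. Where a gene had several probe sets, the one with the highest mean of the antilog signals stood for it. With 1 array per genotype there is no test, and precision is limited by that number. The 2-fold count is descriptive. The calculation was tested on simulated data (Python 3.11.15, pandas 2.3.3).

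The members and the lists of collagen classes, uses, machinery genes and markers were chosen with earlier results of these data known. Genes named are the targeted genes, all collagens, and those with the largest absolute differences, 3 for each machinery list and 2 for each marker list, and others are said to be chosen later or are given with their whole list. Alternatives were another scaling (the median difference of all measured genes set to 0, or quantile normalisation), a floor at the 25th percentile, at the 75th or none, the median of a gene's probe sets, and thresholds of 1.5-fold and 3-fold. Listed genes without a probe set of their own (Col21a1 and others) are not analysed here.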

Additional observations from a re-analysis of the deposited data

How the results depend on the processing

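The 2-fold counts, the medians of the collagens and of each class, tissue use and machinery list, and the targeted genes were recomputed under the alternatives; marker lists, sums and counts beyond the probe set SD were not. Of 155 such values for 25 results, 144 stayed close to the reported value (a count within 1.5 times, a median within the probe set SD of 0.22) and 11 did not. A median smaller in size than 0.22 can change sign and still count as close. Among others, the type IV median did so, at 0.02 over 6 genes with a 25th percentile floor or no floor. So did the median of all collagens, at -0.08 with the median of all genes set to 0. The count of collagens at least 2-fold lower was 5 at 1.5-fold and 0 at 3-fold. For machinery genes the count of lower genes was 0 under a 75th percentile floor, 0 with probe sets summarised by their median, 2 at 1.5-fold and 0 at 3-fold, and the count of higher genes was 1 at 1.5-fold. Under the same floor the FACIT median was -0.64 over 2 genes and the transmembrane median 0.33 over 1 gene, since fewer genes were measured, and no collagen of muscle contacts was left to give a value. With a 25th percentile floor or no floor, Myf5 differed by -1.36. Col6a6 differed by -0.09 under the 75th percentile floor and by -0.96 with the median over its probe sets. Without a floor Col6a5 differed by 0.64 and Col20a1 by -0.40. Setting the median of all genes to 0 turned the sign of 3 collagen genes, Col5a2, Col7a1 and Col13a1, all within 0.08 of 0 as deposited, and the 75th percentile floor turned that of Col18a1 (-0.07). Col27a1 (0.00) and Col25a1 (-0.01) have a sign that varies with the scaling. No paired analysis was possible because each group has 1 array. Signal near the floor limits what can be said of Col10a1, Col20a1, Col25a1 and Col6a5.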

Other observations

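A few values outside the collagen comparison may merit a second look. The aggrecan gene Acan and Col2a1, both abundant products of chondrocytes, ran in opposite directions (-0.32 and 0.49), 0.81 apart on the log2 scale. Adamts3, a procollagen proteinase, has 16 probe sets of its own on this array. The 8 above the floor on both arrays were all higher in the double knockout, by 0.34 to 0.75, while 4 were under the floor on both arrays and 4 on 1 of them. These probe sets share the same pair of RNA samples and are not replicates.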
